A study of Rattus norvegicus with 18 samples.

Results

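The genes of the cytoplasmic ribosomal proteins were followed through fracture healing in the rat femur. All probe sets other than the manufacturer's controls were taken whose annotated gene symbol starts with Rps, Rpl or Rplp and a digit, the Rps6k kinases were left out, and the brightest probe set stood for each symbol. This gave 43 genes from 62 probe sets that carry 1 such symbol, among 8740 probe sets on the array. Of the 43 genes, 30 belong to the large (60S) subunit and 13 to the small (40S) subunit. The rule uses names and brightness and no measured change, but it was chosen with earlier results of these data known. A further 31 probe sets listed only copies within the family and were read as a group, because they name no single gene.

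RNA came from female Sprague-Dawley rats that were young (6 weeks old at fracture), adult (26 weeks) or older (52 weeks). The mid-shaft of the femur was broken around an intramedullary rod and sampled after 0.4 (3 days), 1, 2, 4 or 6 weeks, and unbroken femurs were the 0 time control. Each of the 18 arrays, 1 for each age and time, held RNA pooled from 2 rats, and a time point was therefore judged by its 3 ages and an age by its 5 later weeks. The samples held callus, cortical bone and marrow together. In such tissue fewer cells of a type and less RNA per cell cannot be told apart.

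The ribosome is built from ribosomal RNA and many small, mostly basic proteins, which the cell makes in matched amounts. Their mRNAs are among the most abundant of any growing cell, and most begin with a run of pyrimidines (C and T in the DNA) that places their translation under the control of the mTOR pathway. Cells that divide or secrete much matrix, as those of a healing callus do, carry many ribosomes. Many of these genes have processed copies elsewhere in the genome, which short probes may not tell apart.

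Signals of the family were high. In array units, 37 of the 43 genes had a mean signal of at least 1000, against a median of 151 to 189 over all probe sets of an array. The brightest probe sets were those of Rps29 with a mean signal of 24429, Rpl27a with 15519 and Rplp0 with 15202. The lowest means on the log2 scale belonged to Rplp1l3 (mean signal 26.1), Rpl5 (92.8) and Rps2-ps1 (176.7), of which Rps2-ps1 is named as a pseudogene. The other 3 genes with a mean below 1000 were Rpl17, Rpl30 and Rps24. For Rpl5, Rpl17, Rpl30 and Rps24 a probe set that lists the gene together with its copies was brighter, with means of 2842 to 11334, so the values given for these 4 genes come from weak probe sets. Rps4x-ps9, with a mean signal of 3427, is also named as a pseudogene. Probe sets that list it together with its copies had means of 9793 and 13437. Signals of different probe sets also depend on their probes and were not compared with each other. The 43 genes together made up 3.33% to 5.89% of the summed signal of an array, lowest on the older and adult 0 time arrays and highest on the adult array of 0.4 week.

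Most ribosomal protein genes were up-regulated 0.4 week after fracture. The change at each week was fitted on log2 signals with age as a term (limma), and a gene passed where its adjusted p over all 8740 probe sets was below 0.05. At 0.4 week 27 of the 43 genes rose and 2 fell, while 14.1% of all probe sets rose and 17.1% fell. The median change of the 43 genes was 0.63 on the log2 scale, which is 1.55-fold, and that of all probe sets was -0.13. The 3 arrays of 0.4 week all lay above the 3 controls for 29 of the genes, against 17% of all probe sets, and all below for 3, against 21.6%. At 1 week 15 genes rose and 1 fell (14.6% and 20.4% of all probe sets), with a median of 0.33. At 2 weeks 17 rose and 1 fell (9.49% and 10.3%), with a median of 0.44. The large and small subunits moved by similar amounts, with medians at 0.4 week of 0.66 for the 60S genes and 0.50 for the 40S genes, and 20 of 30 and 7 of 13 genes that rose. Over the 5 weeks together 17 of the 43 genes passed the F test, or 39.5%, against 26.4% of all probe sets, and 16 of these 17 had an increase as their largest change: 13 at 0.4 week, 1 at 1 week and 2 at 2 weeks.

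The counts fell when the adult or the older arrays were removed, in the family and over all probe sets alike. Removal of the adult arrays left 2 genes that rose and 1 that fell at 0.4 week, with 23 at an unadjusted p below 0.05 by limma, and 3.78% of all probe sets passed. Removal of the older arrays left 6 that rose and 1 that fell (5.94% of all probe sets), and removal of the young arrays gave 27 that rose and 3 that fell (33.99%). At 1 week 2, 2 and 21 genes passed with the adult, the older or the young arrays removed, against 4.51%, 2.79% and 35.7% of all probe sets. At 2 weeks 0, 0 and 21 passed, against 0%, 0.126% and 29.6%, with 15, 14 and 30 genes at an unadjusted p below 0.05 by limma. The F test was passed by 0, 2 and 15 genes in the same order, against 0.297%, 2.00% and 23.3% of all probe sets, with 8 genes at an unadjusted p below 0.05 by limma where 0 passed. With 1 age left out the median change ranged from 0.53 to 0.79 at 0.4 week and from 0.36 to 0.49 at 2 weeks. At 1 week it was 0.27 without the adult, 0.21 without the older and 0.54 without the young arrays. The methods' t-test with Benjamini-Hochberg adjustment called 4 of the 43 genes at 0.4 week and 0 at 1 and 2 weeks, against 3.39%, 1.06% and 0.114% of all probe sets, and 29, 12 and 16 genes had an unadjusted p below 0.05 by it.

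**Figure D1:**
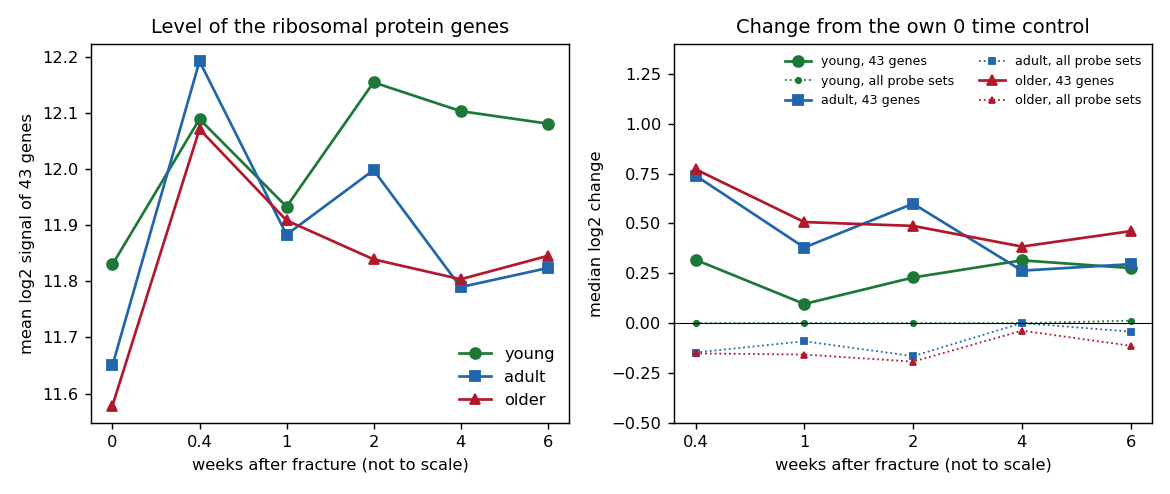
Left, the mean log2 signal of the 43 ribosomal protein genes on each of the 18 arrays by weeks after fracture, with a line for each age and a scale that does not start at 0. Right, the median log2 change of the 43 genes (solid lines) and of all probe sets (dotted lines) from the 0 time array of the same age. For young, adult and older rats the medians of the 43 genes at 0.4 week were 0.32, 0.74 and 0.77, and the levels of the 3 ages lay closest together on the left between 0.4 and 1 week.

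Among the large subunit proteins, Rpl3, which lies near the centre where peptide bonds are made, had one of the largest changes. Its signal was 11969, 4298.5 and 4877 in young, adult and older controls and 19406.5, 15933 and 17982 at 0.4 week. The young control stood well above the other 2 controls, and no control reached the lowest value of 0.4 week. The change was 1.49 (SE 0.30, 2.81-fold, adjusted p = 0.0042 in limma). Rpl3 stayed up at 2 weeks with 1.20 (SE 0.30, adjusted p = 0.021), whereas at 1 week its young array, with 7985, was below the young control. These values are from its brightest probe set. The other probe set of Rpl3, with a mean signal of 6201, passed at 1 week with 1.66 (SE 0.29).

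Rpl14 rose evenly at all 3 ages. It had signals of 1544, 1445 and 1301.5 in young, adult and older controls and 3403, 3774 and 3346 at 0.4 week. The groups did not overlap, and the change was 1.30 (SE 0.18, 2.45-fold, adjusted p = 7.1e-04 in limma). It still was 1.06 (SE 0.18) at 1 week and 0.85 (SE 0.18) at 2 weeks, both of which passed. Rpl41, the smallest protein of the family, went from 2032, 1310.3 and 1268 to 3357, 3494 and 2971 in the same order. Its change of 1.12 (SE 0.13, 2.18-fold) passed at 0.4 week, and it was 1 of 3 genes whose brightest probe set still passed at 4 weeks.

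Rpl19l4, which the gene table names as a copy of Rpl19, had the largest fitted rise of the family, and whether its probe set reads this copy or Rpl19 was not tested. Its controls were at 1131, 1079 and 1223 in young, adult and older rats, and at 0.4 week it reached 1578.5, 6476 and 5470.3. The adult and older arrays rose far more than the young array, which was 0.48 on the log2 scale above its control. The fitted change was 1.74 (SE 0.34, 3.35-fold, adjusted p = 0.0035 in limma), and by 1 week the 3 signals were 2205, 2840 and 3378. The probe set named Rpl19 rose by 0.63 (SE 0.15) at 0.4 week. Rpl7a rose by 0.95 (SE 0.14), from 3087, 3534 and 5243 to 6108, 7816 and 8596. Rpl6 had 5961, 4929 and 4128.5 in the controls and its largest change at 2 weeks, with 10223, 10613.5 and 8589, a change of 0.98 (SE 0.22). At 0.4 week its change was nearly the same, 0.96 (SE 0.22). The other probe set of Rpl6 had 1.19 (SE 0.16) at 0.4 week and 0.96 (SE 0.16) at 2 weeks, so the week of the largest change depends on the probe set. Every array of Rpl7a at 0.4 week and of Rpl6 at 2 weeks was above every control of the gene.

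Of the small subunit proteins, Rps9, which binds ribosomal RNA early in the assembly of the subunit, was the steadiest. Its signal went from 5981, 5736 and 4769 in young, adult and older controls to 11434, 11249 and 10241 at 0.4 week. The 3 ages differed little at either time. The change was 1.00 (SE 0.11, 2.00-fold, adjusted p = 2.0e-04 in limma). Rps10 rose from 3722, 2922 and 2829.5 to 5822, 5787 and 6207, a change of 0.92 (SE 0.13). Rps15 rose from 7546, 5177 and 4448 to 9497, 9672 and 9534, so that controls that differed by age were followed by nearly equal signals, and its change was 0.78 (SE 0.16).

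The probe set named Rps27l, a relative of Rps27 that is a target of the tumour suppressor p53, had its largest change at 1 week. Whether it reads Rps27l or Rps27 was not tested. Its controls were at 2088.5, 1408 and 879.9 in young, adult and older rats, and at 1 week it had 2934, 3119 and 4095. The order of the ages was thus turned around, from highest in the young to highest in the older rats. The change was 1.29 (SE 0.27, 2.44-fold, adjusted p = 0.0053 in limma), after 1.23 (SE 0.27) at 0.4 week. Rps24, by its weak probe set, rose from 385.3, 278.4 and 333.7 to 955.8, 579.1 and 637.4 at 2 weeks, a change of 1.10 (SE 0.16, adjusted p = 0.0038 in limma). The other genes that passed the F test were Rpl18, Rpl23, Rpl35a, Rpl4 and Rpl11, with changes of 0.73 to 0.85 at 0.4 week.

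**Figure D2:**
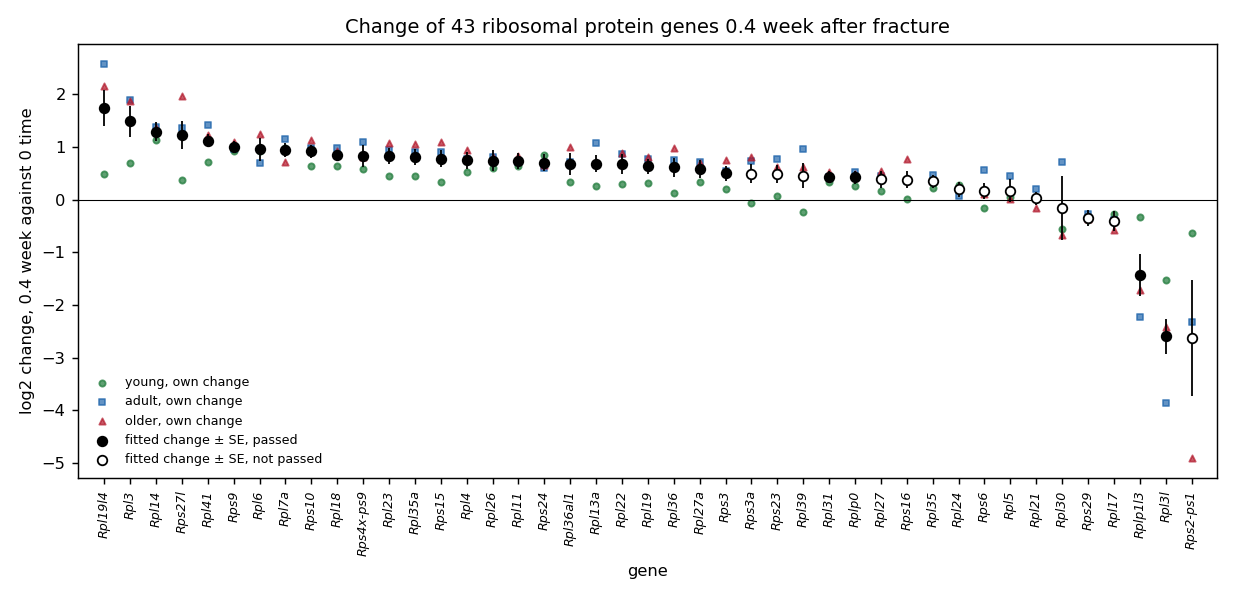
The log2 change of each of the 43 genes at 0.4 week against 0 time, sorted by size. Circles with bars are the fitted changes with their standard errors, filled where the gene passed, and coloured points are the changes of single ages. The fitted changes run from 1.74 for Rpl19l4 to -2.60 for Rpl3l and -2.62 for Rps2-ps1, and the young points lie below both the adult and the older points for all genes that rose except Rpl6, Rpl7a and Rps24.

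The stretch of DNA around the start site is shown for 3 genes that rose steadily, for Rps24 and for the pair Rpl3 and Rpl3l, which moved in opposite directions. Each window holds the 35 bases before the annotated start and the first 15 bases of the first exon, from RefSeq on the GRCr8 assembly, 5′ to 3′ on the strand of the gene, and capitals mark unbroken runs of at least 8 C or T. Windows were matched by gene symbol, and that of Rps9 is listed under a gene identifier that differs from the one the probe set annotation gives for Rps9.
Rpl14, chr8:129163585-129163634, plus strand: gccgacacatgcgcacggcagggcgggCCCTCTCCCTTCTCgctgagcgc
Rps9, chr1:74430423-74430472, minus strand: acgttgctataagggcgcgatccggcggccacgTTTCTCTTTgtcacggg
Rps10, chr20:5700730-5700779, minus strand: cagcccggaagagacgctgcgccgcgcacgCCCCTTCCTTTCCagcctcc
Rps24, chr16:96482-96531, plus strand: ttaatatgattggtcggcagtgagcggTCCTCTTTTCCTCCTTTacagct
Rpl3, chr7:113507976-113508025, minus strand: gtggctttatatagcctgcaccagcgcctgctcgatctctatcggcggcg
Rpl3l, chr10:14258411-14258460, plus strand: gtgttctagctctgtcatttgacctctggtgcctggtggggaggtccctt

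In Rpl14, Rps9, Rps10 and Rps24 the run spans or adjoins the start. Rpl3 has no such run in its window, and that of Rpl3l begins in its last bases and continues past it. Promoter windows were found for 37 of the 43 genes. A run of at least 8 C or T within 20 bases of the start was present in 24 of these 37, or 64.9%, against 15.5% of all 33469 windows of the table. In the whole window, from 250 bases before to 50 bases after the start and on both strands, CCGGAAG was found for 9 of 37 (24.3% against 8.75% of all), AAGATGGC for 4 (10.8% against 3.17%) and TATAAA for 5 (13.5% against 14.2%). CCGGAAG is the core bound by ETS factors and AAGATGGC that of YY1. These letters describe the genes and do not show that a factor bound.

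A few genes did not follow the family. Rpl3l, the form of Rpl3 that striated muscle makes in its place, fell. Its signal was 1041, 3431 and 2374 in young, adult and older controls and 363.7, 236.7 and 445.4 at 0.4 week. Every array of 0.4 week was below every control. The change was -2.60 (SE 0.33, adjusted p = 4.2e-04 in limma), which is 6.05-fold lower, and its other probe set fell by 3.08 on the log2 scale. The fall was smaller at 1 week (-2.03, SE 0.33) and 2 weeks (-1.08, SE 0.33), both of which passed, and at 6 weeks the signals were 1140.4, 1366 and 1579.5.

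The skeletal muscle list moved with Rpl3l: at 0.4 week 13 of its 15 measured genes fell and none rose, among them Acta1, which encodes the actin of skeletal muscle, with -1.48 (SE 0.24), and Myl2, a myosin light chain, with -5.27 (SE 0.50). The mean log2 signal of the list was 12.9, 13.9 and 13.5 in young, adult and older controls and 10.9, 10.5 and 10.7 at 0.4 week. Its part in the change of Rpl3l was not tested.

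Rps29, the brightest probe set, was lower after fracture. Its signals of 30066, 29578 and 28354 in the controls were followed by 23029.9, 24367.5 and 22142 at 0.4 week, and no array of 0.4 week reached a control. The change of -0.34 (SE 0.15) did not pass (adjusted p = 0.11 in limma), while its other probe set, nearly as bright, passed with -0.45 (SE 0.13, adjusted p = 0.021). With quantile normalization in place of the authors' scaling the change of Rps29 was 0.28, so its direction depends on the scaling. Signals above those of Rps29 were measured for Hbb, which reached 47831. Whether the Rps29 signals were near the upper limit of the detector was not tested. Rplp1l3, named as a copy of the stalk protein gene Rplp1, was called lower with -1.43 (SE 0.40, adjusted p = 0.021), but its signals were 25.2, 104.3 and 65.9 in the controls and 9.5, 22.2 and 2.0 at 0.4 week, of which 2 lie below the floor of 20. Rps2-ps1 had -2.62 (SE 1.10), which did not pass.

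The stalk of the large subunit, where elongation factors dock, was read by Rplp0. Its signal rose from 14407, 12969 and 13486 in young, adult and older controls to 17338, 18577 and 19041 at 0.4 week, a change of 0.43 (SE 0.12, 1.35-fold, adjusted p = 0.023 in limma). This was less than the median of the family, and at 6 weeks the signals of 12953.5, 14181 and 13480.2 were close to those of the controls. Rpl36al1, a paralog named after Rpl36a, rose by 0.69 (SE 0.21). Rps4x-ps9, which is named as a pseudogene, rose by 0.84 (SE 0.21). Rpl21, Rpl24 and Rpl5 changed by 0.03 (SE 0.13), 0.20 (SE 0.14) and 0.17 (SE 0.22) and did not pass.

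**Figure D3:**
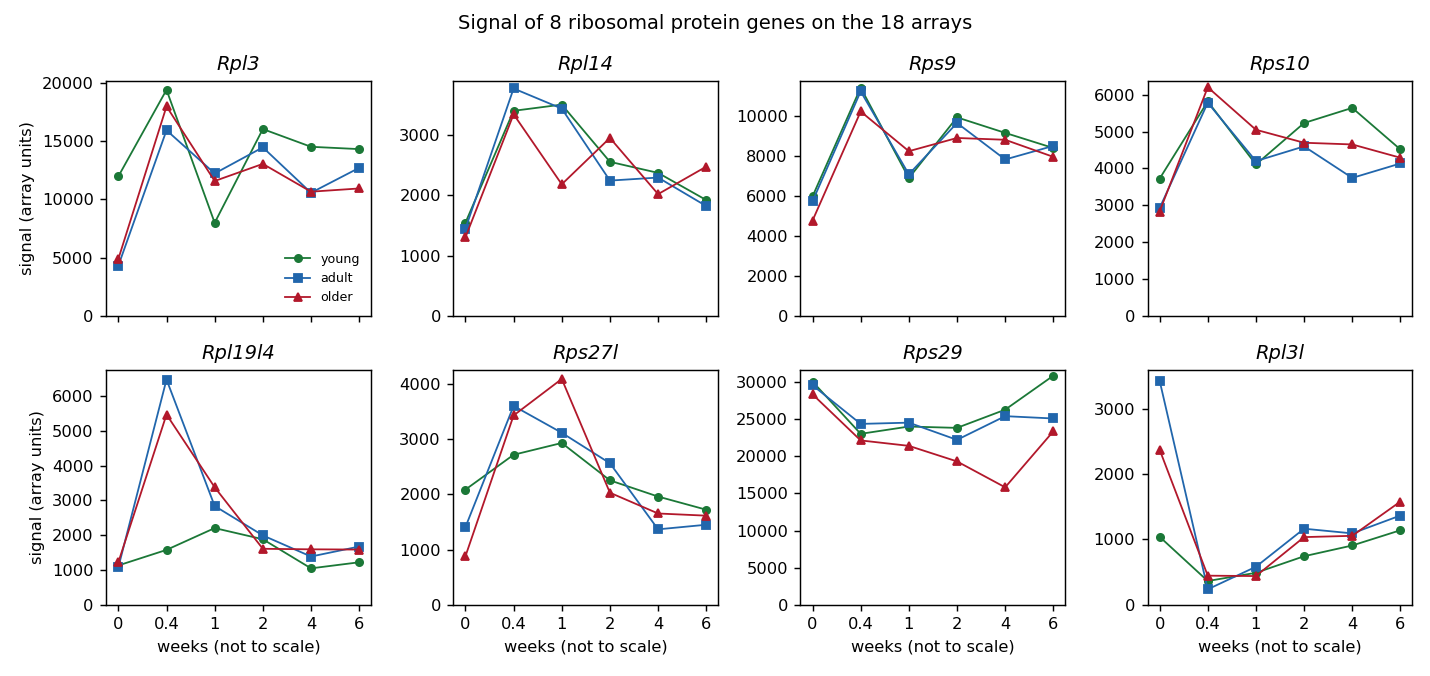
Signal in array units of 8 ribosomal protein genes by weeks after fracture, with a line for each age and each axis starting at 0. Rpl3, Rpl14, Rps9 and Rps10 rose at all ages, Rpl19l4 rose mainly in adult and older rats, Rps27l was highest at 1 week in young and older rats, and Rps29 and Rpl3l were lower at 0.4 week.

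The increase was smaller at the end of the series. At 4 weeks 3 of 43 genes rose and 0 fell (3.31% and 1.77% of all probe sets), with 15 higher and 3 lower at an unadjusted p below 0.05 in limma. The 3 were Rps9 with 0.65 (SE 0.11), Rps10 with 0.56 (SE 0.13) and Rpl41 with 0.55 (SE 0.13). These calls are for the brightest probe sets. On their dimmer probe sets Rpl3 (1.35, SE 0.29), Rpl6 (0.84, SE 0.16), Rps3 (0.65, SE 0.15) and Rps6 (0.63, SE 0.14) also passed. So did a dimmer probe set of Rps15 (0.47, SE 0.10), while its other had -0.53 (SE 0.20) and did not pass. The remaining dimmer probe sets did not pass at 4 weeks. At 6 weeks only Rps9 passed, with 0.60 (SE 0.11, 1.52-fold, adjusted p = 0.031 in limma), against 0.561% of all probe sets called higher and 0.32% called lower. At an unadjusted p below 0.05 there were 15 higher and 1 lower at 6 weeks. The signal of Rps9 was then 8409, 8514 and 7965, all above the highest control of 5981. The median of the 43 genes was 0.28 at both times.

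Several of these late values involve 2 arrays that stood apart. The ratio of the 3′ to the 5′ probe set of Gapdh, a measure of how complete the RNA was, was 3.48 and 6.57 on the young arrays of 4 and 6 weeks and 1.15 to 1.83 on the other 16. Without these 2 arrays the median was 0.18 at 4 and 0.24 at 6 weeks, 1 gene passed at 4 weeks and 0 at 6 weeks (3.66% and 1.84% of all probe sets), and 11 and 13 genes had an unadjusted p below 0.05. Leaving out the adult or the older arrays left 0 genes at both weeks (6 to 9 at an unadjusted p below 0.05). The share of all probe sets is not given for these removals, so the 0 is not read as a trait of the family. Leaving out the young arrays left 6 at 4 weeks and 7 at 6 weeks (13.4% and 15.05% of all probe sets).

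**Figure D4:**
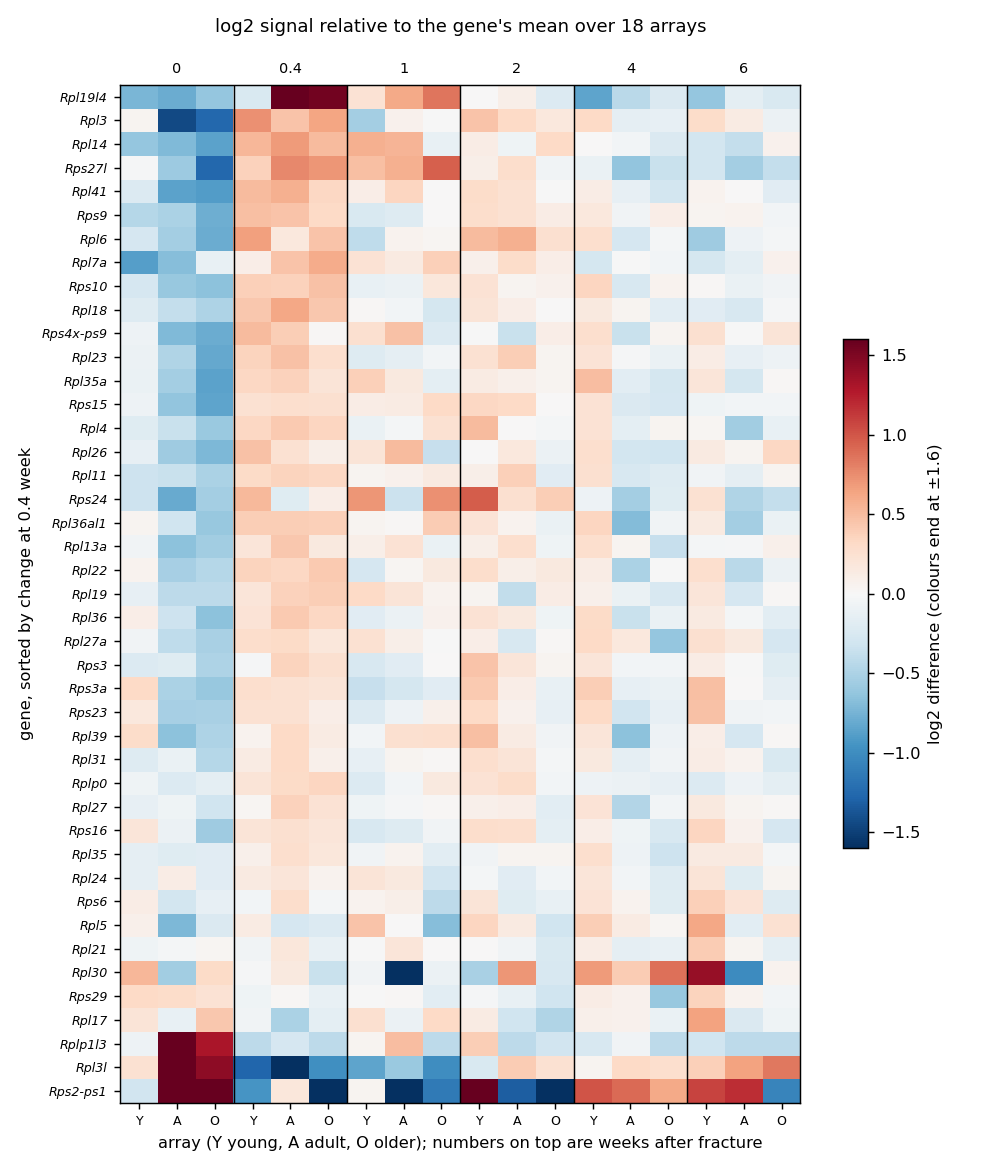
The log2 signal of each gene relative to its own mean over 18 arrays, with genes sorted by their change at 0.4 week and arrays grouped by week. Blue is lower and red is higher than the mean of the gene. The adult and older 0 time columns are blue and the 0.4 week columns red for most rows, and the lowest rows, Rplp1l3, Rpl3l and Rps2-ps1, are red in those 2 columns of 0 time.

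The genes moved together. Over the 18 arrays the log2 signal of a gene correlated with the mean of the other 42 with a median r of 0.69, and r was above 0.5 for 32 genes. Rpl36 (r = 0.90), Rpl23 (0.89) and Rps23 (0.87) were closest to the others, and Rpl3l (-0.79), Rplp1l3 (-0.61) and Rps2-ps1 (-0.45) were farthest. The arrays share a scaling and a time course, so these values are a description.

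Different probe sets of a gene mostly moved alike. Of 16 genes with more than 1 probe set, 12 had the same direction at 0.4 week in all of them. The exceptions were Rpl21, Rpl24, Rps15 and Rps2-ps1. Rpl21 had -0.95 (SE 0.25) and 0.94 (SE 0.17) on its dimmer probe sets, both of which passed, beside 0.03 on the brightest. Rps15 had 0.78 and 0.93 on a pair of probe sets and -0.48 (SE 0.20) on the other, which did not pass. Rps6, whose protein is the classic target of the S6 kinases, had 0.17 (SE 0.15) on its brightest probe set and 0.80 (SE 0.14, adjusted p = 0.0025 in limma) on the other. The 31 probe sets that list several copies rose like the single genes: 22 rose and 0 fell at 0.4 week (24 higher and 0 lower at an unadjusted p below 0.05 by limma), with a median of 0.63, and 15 of them passed the F test.

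Several other parts of the translation machinery were up-regulated at 0.4 week as well. Outside the naming rule, Rack1, a scaffold on the small subunit, rose by 0.88 (SE 0.19, 1.85-fold) at 0.4 week, from 6192, 4560.5 and 3374 to 8646, 8450.4 and 8206. Rpsa, a small subunit protein that is also known as a laminin receptor, had 12738, 8828.5 and 11068 in the controls and 12440.4, 13213 and 11850.3 at 0.4 week, a range that overlaps. Of 5 genes in the elongation factor list 3 rose and 2 fell at 0.4 week. Among those that fell was Eef2k, the kinase of the factor Eef2, with -0.36 (SE 0.11). Eef1a1, the general form of the factor that brings tRNA to the ribosome, rose by 0.84 (SE 0.20) and Eef1g by 0.80 (SE 0.10). Eef1a2, its form in muscle and nerve, fell by 1.85 on the log2 scale (SE 0.37).

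Initiation factors and their regulators rose in 9 of 20 cases and fell in 1 at 0.4 week, with a median of 0.32. Eif3m rose by 1.49 (SE 0.23), Eif2b1 by 1.12 (SE 0.13) and Eif4e, which binds the cap of the mRNA, by 1.08 (SE 0.16), whereas Eif4a2 fell by 0.80 on the log2 scale (SE 0.23). Of 14 genes of ribosome synthesis and the nucleolus, 6 rose and 0 fell at 0.4 week by limma, with 0.75 as their median. Nop58, a core protein of the particles that modify ribosomal RNA, rose by 1.52 (SE 0.23), Ddx21, a nucleolar helicase, by 1.37 (SE 0.27) and Ncl (nucleolin) by 1.17 (SE 0.19). Myc, which drives ribosome synthesis, and Rheb, which activates mTOR, were the 2 of 10 upstream regulators that rose at 0.4 week, with 0.98 (SE 0.23) and 0.54 (SE 0.12). Mitochondrial ribosomal proteins had a median of 0.14, and 2 of 14 rose, Mrps6 with 0.83 (SE 0.22) and Mrpl23 with 0.69 (SE 0.19). The lists were not compared with each other by a test.

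**Figure D5:**
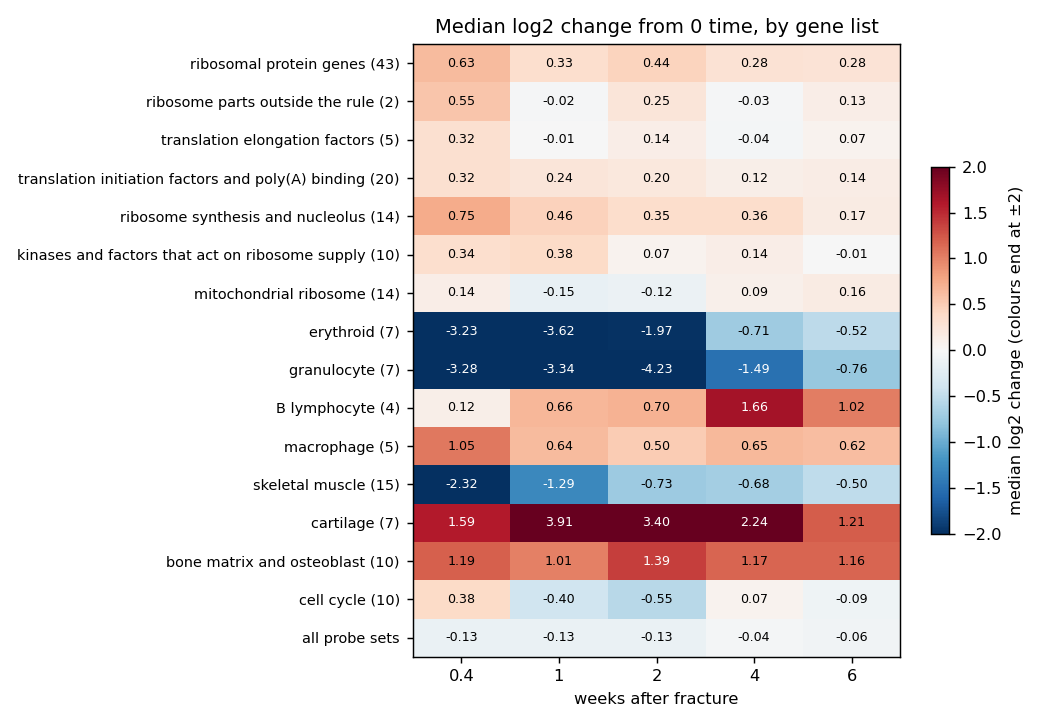
Median log2 change from 0 time at each week for the ribosomal protein genes, for lists of translation, ribosome synthesis and cell type genes (number of measured genes in brackets) and for all probe sets. The ribosomal protein genes had medians of 0.63, 0.33, 0.44, 0.28 and 0.28, while the erythroid, granulocyte and skeletal muscle lists were far below 0 at 0.4 week.

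Cell type markers moved at the same time. At 0.4 week all 7 erythroid genes fell, 6 of 7 granulocyte genes fell, 3 of 5 macrophage genes rose, and in the list of bone matrix and osteoblasts 5 of 10 rose and 1 fell. The erythroid list had mean log2 signals of 11.4 to 11.7 in the controls and 8.24 to 8.92 at 0.4 week, and the bone list had 10.1 to 12.6 and 12.4 to 12.7. Over the 18 arrays the mean of the 43 genes had r = 0.76 with the macrophage list, 0.68 with the bone list and 0.60 with the cell cycle list. With the cartilage and B lymphocyte lists r was 0.38 and 0.14. With the muscle, granulocyte and erythroid lists it was -0.70, -0.33 and -0.30. Among the translation lists r ran from -0.32 for the elongation factors to 0.79 for the ribosome parts outside the naming rule. In the cell cycle list 2 of 10 genes rose at 0.4 week, and its medians at 1 and 2 weeks were -0.40 and -0.55. With the 3′ to 5′ ratio of actin (log2) r was 0.76, and with that of Gapdh 0.49. The actin ratio was lowest, at 1.08 and 1.20, on the older and adult 0 time arrays. No defining marker was at 0: Hbb, Slc4a1, S100a9, Col2a1, Col1a1, Bglap and Acta1 had their lowest signals between 86.3 for Col2a1 and 11678 for Acta1. The part of these differences in the rise of the ribosomal protein genes was not tested.

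With 1 array for each age and time, most ribosomal protein genes had lower signals in older than in young rats before fracture and again from 2 weeks on. On the 0 time arrays, 36 of the 43 genes were lower in older than in young rats, with a median difference of -0.30, and 34 were lower in adult than in young rats, with -0.31, whereas all probe sets had medians of 0.11 and 0.10. With 1 array for each age this difference has no replicate. After fracture the median difference between older and young rats was -0.02, 0.09, -0.26, -0.33 and -0.18 for the 5 times in order. At 2, 4 and 6 weeks 36, 39 and 32 of the 43 genes were lower in older rats, while all probe sets had medians of -0.03, 0.08 and 0. The young arrays of 4 and 6 weeks are those with the high Gapdh ratio. Without them, or with quantile normalization, the difference over the 5 later weeks was smaller, as given below. The range over the 3 ages for a gene had a median of 1.50-fold at 0 time, 1.15-fold at 0.4 week and 1.26-fold to 1.38-fold at the later weeks. On the log2 scale this was 0.58 at 0 time and 0.20 at 0.4 week, against 0.84 and 0.39 for all probe sets. The range thus narrowed over the whole array and not only in the family. The bone list was at 12.6 in the young and 10.1 in the older control and the muscle list at 12.9 and 13.5. The part of these marker levels in the difference was not tested.

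Over the 5 later weeks no ribosomal protein gene passed between older and young rats, and 0% of all probe sets did. At an unadjusted p below 0.05 in limma there were 2 higher and 11 lower, and 37 of 43 genes were lower in the older rats, with a median of -0.14. The lowest p-values belonged to Rpl41 with -0.24 (SE 0.06), Rpl5 with -0.58 (SE 0.17) and Rps6 with -0.36 (SE 0.11) among genes that were lower in older rats, and to Rpl7a with 0.25 (SE 0.08), Rpl19l4 with 0.63 (SE 0.27) and Rpl3l with 0.26 (SE 0.18) among those that were higher, with adjusted p from 0.19 to 0.62 in limma. Without the young arrays of 4 and 6 weeks 26 of the 43 genes were lower and the median was -0.03, and with quantile normalization the figures were 27 and -0.06.

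At 4 and 6 weeks together 0 of the 43 genes passed, against 0.149% of all probe sets, and 0 were higher and 8 lower at an unadjusted p below 0.05 in limma. The median was -0.27, and 37 genes were lower in older rats. Rpl27a had -0.72 (SE 0.18, adjusted p = 0.17 in limma), Rpl41 -0.32 (SE 0.10) and Rpl21 -0.40 (SE 0.12), while Rpl19l4 had 0.49 (SE 0.21), Rpl7a 0.29 (SE 0.13) and Rpl3l 0.34 (SE 0.17). This comparison uses the 2 young arrays with the high Gapdh ratio, and with quantile normalization the median was -0.08. When dim probe sets (mean signal under 200) were left out, Rpl27a passed (adjusted p = 0.039 in limma). At 1 and 2 weeks 0 genes passed and 0% of all probe sets, with 0 higher and 2 lower at an unadjusted p below 0.05 in limma, Rpl5 with -0.90 (SE 0.25) and Rps2-ps1 with -2.54 (SE 0.82). Next were Rps6 with -0.41 (SE 0.17) among the lower genes and Rpl3l with 0.16 (SE 0.17), Rpl19l4 with 0.19 (SE 0.21) and Rpl22 with 0.15 (SE 0.17) among the higher. The median there was -0.09 and turned to 0.01 with scaling to the median and to 0.09 without week 2.

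Measured from the control of the same age, the rise was larger in older than in young rats for 30 of the 43 genes. The median difference was 0.20, against -0.13 for all probe sets. It includes the lower older control, where 36 of the 43 genes were below the young control. The median changes of young rats were 0.32, 0.10, 0.23, 0.31 and 0.28 from 0.4 to 6 weeks in order, those of adult rats were 0.74, 0.38, 0.60, 0.26 and 0.30, and those of older rats were 0.77, 0.51, 0.49, 0.38 and 0.46. Only 1 gene passed, Rplp1l3 near the floor of the scale, with -1.67 (SE 0.42, adjusted p = 0.047 in limma), against 6.59% of all probe sets. It no longer passed without week 0.4, 1, 4 or 6. Rps27l had 1.31 (SE 0.34), Rpl3 1.15 (SE 0.37) and Rpl41 0.44 (SE 0.14), with adjusted p of 0.059, 0.11 and 0.12 in limma, and Rps2-ps1 and Rpl7a had -4.62 (SE 1.64) and -0.52 (SE 0.20). Without the young arrays of 4 and 6 weeks Rps27l and Rpl41 passed and Rplp1l3 did not, and without week 1 Rpl3 passed. Each of these differences rests on 1 control array per age, so the spread between controls is not in the error.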

How the data were processed

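Expression was read from 18 rat oligonucleotide arrays, 1 for each of 3 ages and 6 times. The deposited intensity values are linear Microarray Suite 5.0 signals. The authors had scaled each array to an average signal of 500, which was checked on trimmed means. Detection calls were not used here. A floor of 20 was set before the log2 step, and nothing else was normalized. Of 8799 probe sets, 59 controls were left out. Platform annotation was updated with a current rat gene table, after which 7017 probe sets had 1 symbol, 297 several and 1426 none.

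Each week was compared with 0 time by limma 3.58.1 (R 4.3.3) using all 18 arrays (week and age, 10 residual degrees of freedom), with an intensity trend and Benjamini-Hochberg adjustment over 8740 probe sets at 0.05. Older and young rats were compared over the later weeks (8), within phases (4) and in the change from the own control (8). The tests were tried on simulated data. Scripts ran in Python 3.11.15 (pandas 2.3.3, matplotlib 3.10.9).

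The rule for the genes and the lists of other genes were chosen with earlier results of these data known. Named were the genes that passed the F test, the highest and lowest calls of each comparison or the lowest p-values where few passed, the brightest and dimmest, stalk proteins and paralogs, those most and least like the others, and up to 3 called genes of a list in each direction. Rpl21, Rpl24, Rps15 and Rps6 were named for their probe sets, and Rpl19 and Rpl5 beside their relatives, after their values were seen. Rps4x-ps9 was likewise named afterwards, as a pseudogene. Precision is limited by the number of arrays, and p-values measure the spread between ages or weeks. Counts at an unadjusted p below 0.05 are given for the family only, with no share of all probe sets beside them. Alternatives were quantile normalization, a floor of 1, averaged probe sets, scaling to the median, an offset of 50 before the log2 step, only probe sets with a mean signal of 200 or more, no intensity trend, no age or week term, the methods' test, and arrays left out by age, by week or for a high Gapdh ratio (for the comparisons of older and young rats over the later weeks and from the own control the last was added after the data were seen).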

Additional observations from a re-analysis of the deposited data

Results flagged for a closer look

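Rplp1l3 differed between older and young rats in its change from the own 0 time control by -1.67 on the log2 scale (limma), and most of its signals after fracture lie near the floor. Rpl21 moved in opposite directions from the own control: all 5 later arrays of young rats were above their control (median 0.085 on the log2 scale) and all 5 of older rats were below theirs (median -0.15). The fitted difference for Rpl21 was -0.33 (SE 0.23, adjusted p = 0.47 in limma) and did not pass.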

How the results depend on the processing

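The number of ribosomal protein genes that passed at 0.4, 1 and 2 weeks, and over the 5 weeks together, stayed within 1.5 times of the reported number under every other setting except the methods' t-test and the removal of an age. The methods' t-test, after Benjamini-Hochberg adjustment, called 4 genes at 0.4 week and 0 at 1, 2, 4 and 6 weeks, where 29, 12, 16, 3 and 8 genes had an unadjusted p below 0.05. At 4 weeks, where 3 passed, the count was 1 with a floor of 1, scaling to the median or without the young arrays of 4 and 6 weeks, 5 with averaged probe sets, 7 with quantile normalization and 8 without dim probe sets (mean signal under 200). At 6 weeks, where 1 passed, it was 0 with scaling to the median, an offset of 50 or without those 2 arrays, 2 with quantile normalization and 3 without dim probe sets. The median change at 4 weeks was 0.39 with quantile normalization and 0.18 without those 2 arrays. For older against young rats at 4 and 6 weeks 1 gene passed without dim probe sets. In the change from the own control, where 1 passed, 0 did with a floor of 1, an offset of 50, no dim probe sets, scaling to the median, quantile normalization or no intensity trend, and 2 did with averaged probe sets or without those 2 arrays. Rps29 at 0.4 week was 0.28 with quantile normalization. With 1 age left out, 3 to 30 genes passed at 0.4 week, 2 to 21 at 1, 0 to 21 at 2, 0 to 6 at 4 and 0 to 7 at 6 weeks, and 0 to 15 passed the F test. With 1 week left out, 0 to 1 passed in the change from the own control and 0 in the other comparisons of age. The fit with no replicate block for age called 27, 15, 14, 2 and 1 genes at the 5 weeks and 14 in the F test, and changed no count by more than 1.5 times. The shares of all probe sets are not set beside these counts, which describe only how the calls of the family move with the setting. The cause of these differences was not tested. Low signals limit Rplp1l3, Rps2-ps1 and Rpl5.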
